A study of Mus musculus with 24 samples.

Results

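The 10 classical heat shock chaperone genes were followed through proliferating mouse myoblasts after knockdown (KD) of a SWI/SNF chromatin remodelling subunit or with a scrambled control. The cells were untreated or given copper or zinc. The genes were *Hspa1a*, *Hspa1b*, *Dnajb1*, *Hsph1*, *Hsp90aa1*, *Hspb1*, *Hspa8*, *Hspd1*, *Hspe1* and *Bag3*, chosen by name as 10 of the 55291 gene rows of an RNA-seq count table. The table held 24 libraries from 4 lines: scrambled control (scr), *Baf180* (*Pbrm1*) KD, *Baf250a* (*Arid1a*) KD and *Brd9* KD myoblasts. Each line was untreated (NT) or grown with 100 µM CuSO4 (Cu) or 50 µM ZnSO4 (Zn) for 48 h, which gave 12 groups of 2 libraries. All lines, scr included, had received a knockdown construct. By the study's methods these were stable puromycin-selected populations of C2C12 cells, an immortalized mouse myoblast line, carrying lentiviral shRNA, whereas the sample labels describe primary myoblasts and lipofectamine. The study's methods call the 2 libraries of a group biological replicates, the labels give only a replicate number, and each p-value measures the spread between such pairs of libraries.

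Heat shock chaperones bind unfolded or newly made proteins and help them fold, stay soluble or be degraded. The HSP70 proteins work in cycles with J-domain partners and nucleotide exchange factors, the HSP90 proteins act on nearly mature clients, small heat shock proteins hold clients without using ATP, and the HSP60 chaperonin folds proteins inside mitochondria. The inducible members are targets of the transcription factor HSF1, which binds inverted repeats of the pentamer nGAAn, and thiol-reactive metals are among the stresses known to activate it. In muscle, the small heat shock protein Hspb1 and the cochaperone Bag3 are known for their association with the cytoskeleton and the Z-disc.

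The labels carried a conflict that bears on every metal comparison: a treatment field differed from the sample title in 18 of the 24 samples, and the titles, which match the columns of the table, were used. Libraries titled Zn had the highest metallothionein levels of their line, with *Mt2* at 190 to 376 CPM (counts per 1000000, on scaled library sizes) against 18.2 to 110 CPM in the NT libraries. The targeted genes were low in the lines named for them. *Pbrm1* spanned 42.2 to 75.7 CPM in *Baf180* KD against 99.9 to 227 in scr, *Arid1a* spanned 92 to 144 in *Baf250a* KD against 266 to 308, and *Brd9* spanned 13.8 to 17.9 in *Brd9* KD against 27.2 to 32.4. Library totals ran from 12719173 to 75179394 counts in 23 libraries. The *Baf250a* KD Zn replicate 2 library stood apart with 495778 counts, and the Zn results of that line are given with and without it.

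Cell type markers also differed between the lines. The myoblast genes *Myod1*, *Des*, *Cdh15* and *Itga7* were detected in every library, while *Pax7* and *Mymk* were at 0 in the shallow library only. The summed level of 10 myoblast markers was 2851 to 4312 CPM in scr, 1996 to 2216 in *Baf180* KD, 1332 to 1535 in *Baf250a* KD and 2008 to 2414 in *Brd9* KD. Of these 10 markers, edgeR's quasi-likelihood test on untreated libraries called 4 higher and 4 lower in *Baf180* KD, 3 higher and 6 lower in *Baf250a* KD, and 1 higher and 7 lower in *Brd9* KD. *Myog* and *Myh3* ran against the sum in *Baf180* KD, at 24 to 35.6 and 23.2 to 39.9 CPM against 3.67 to 7.07 and 4.11 to 6.56 in scr. The 7 summed fibroblast and adipogenic markers were at 30.5 to 43.6 CPM in scr and at 86.9 to 111, 119 to 140 and 60.3 to 88.3 CPM in *Baf180*, *Baf250a* and *Brd9* KD. *Cd34* and *Pdgfra* were higher in every KD line. *Pparg* was not, at 13.6 to 21.5 CPM in scr and 19.1 to 24.5, 13.6 to 21.7 and 13.1 to 18.6 in the KD lines. The other genes of this sum stayed at or below 0.894 CPM. Markers of immune, endothelial and epithelial cells summed to 3.18 to 6.4 CPM, nearly all of it *Cd68*, and *Ptprc*, *Epcam*, *Krt8*, *Krt18*, *Cdh5* and *Pecam1* each stayed at or below 0.377 CPM. In bulk RNA, fewer cells of a type and less RNA per cell cannot be told apart, and the part of these marker shifts in the chaperone results was not tested.

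In untreated scr myoblasts the 10 genes covered a wide range of levels. *Hspb1* was the most abundant per length, at 380 ± 19.9 CPM per kb of exon (mean ± SD, n = 2). *Hspa8*, the constitutive cytosolic HSP70, followed at 183 ± 22.1, and *Hspd1*, the mitochondrial HSP60, at 135 ± 3.78 CPM per kb. Below these came *Hspe1*, the HSP10 lid of the mitochondrial chaperonin, at 70.1 ± 2.73 and *Hsp90aa1*, the stress-inducible cytosolic HSP90, at 67.4 ± 24.4, a pair whose levels did not differ beyond their spread. *Bag3*, an HSP70 nucleotide exchange factor that routes clients to autophagy, stood at 46.5 ± 0.304 CPM per kb. *Dnajb1*, a J-domain partner of HSP70, and *Hsph1*, the HSP110 exchange factor, lay within their spread of each other at 28.5 ± 1.99 and 27.9 ± 0.85, an order that turned when the longest transcript was used as the length (30.5 and 42.6 CPM per kb). The 2 stress-inducible HSP70 genes were the least abundant, with *Hspa1b* at 2.03 ± 0.105 and *Hspa1a* at 0.04 ± 0.0345 CPM per kb. *Hspa1a* was counted with 0 to 22 reads per library and was at 0 in scr Zn replicate 1, where 3 counts would be 0.114 CPM, and in the shallow *Baf250a* KD Zn library, where 3 counts would be 6.05 CPM.

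**Figure D1:**
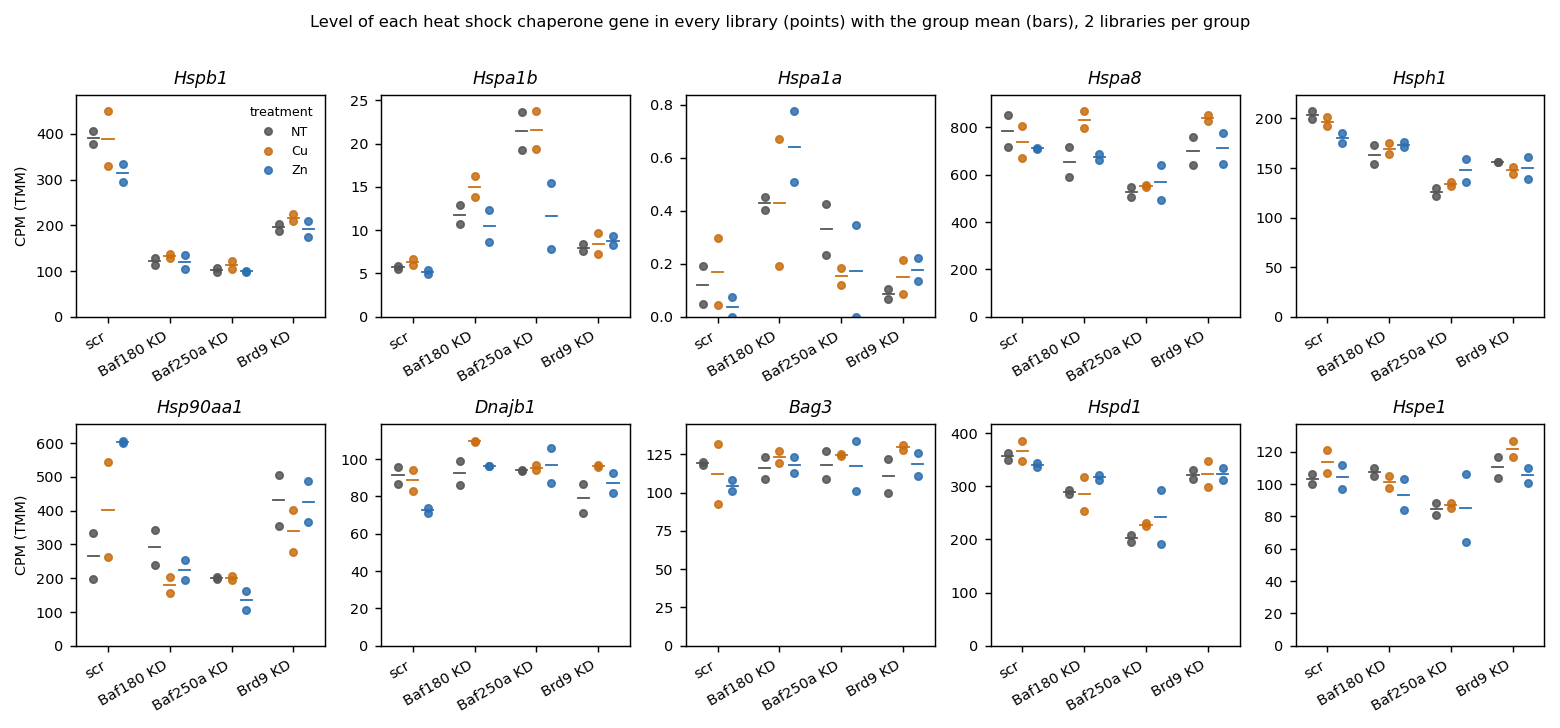
Level of each of the 10 chaperone genes in CPM (y axes, each starting at 0) in the 4 lines (x axis), with 1 point per library coloured by treatment and a bar at the mean of 2 libraries. All 18 KD libraries lie below all 6 scr libraries for *Hspb1* and above them for *Hspa1b*, while for *Bag3* the lines overlap.

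Several of these genes share sequence with other loci, which limits what uniquely aligned reads can show. *Hspa1a* and *Hspa1b* lie side by side on chr17 (34969190 to 34972156 and 34956436 to 34959238, minus strand, GRCm38) and their transcripts were 94.9% identical over 2686 aligned bases. The other genes lie, in the GENCODE annotation of GRCm38, with *Hspb1* at chr5:135887919-135889563 (plus strand), *Hspa8* at chr9:40800984-40810087 (plus strand), *Hsph1* at chr5:149614287-149636376 (minus strand), *Dnajb1* at chr8:83608193-83612653 (plus strand) and *Hsp90aa1* at chr12:110690605-110702728 (minus strand). The mitochondrial pair and the HSP70 partner lie with *Hspd1* at chr1:55077835-55088243 (minus strand), *Hspe1* at chr1:55088132-55091307 (plus strand) and *Bag3* at chr7:128523616-128546981 (plus strand). Only uniquely aligned reads were counted, so reads that lie within sequence shared with another gene can be missing. The levels per kb above use the full exon length, so they can be too low for genes that share much, and their order was not corrected for this. Of all 50-base words in the transcript, 60.3% of those in *Hspa1a* and 62.3% of those in *Hspa1b* also occurred in another gene. The share was 73.2% for *Hspa8*, 58.5% for *Hsp90aa1*, 51.6% for *Hspb1*, whose copy is the pseudogene *Hsp25-ps1*, 44.8% for *Hspd1* and 36.1% for *Hspe1*. *Dnajb1* shared 0.407% of its words, and *Hsph1* and *Bag3* shared none. *Hspd1* and *Hspe1* are divergent neighbours on chr1 whose annotated exons overlap by 112 bp on opposite strands, which stranded counting keeps apart.

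Knockdown of each subunit was compared with scr in the untreated cells, and the direction of change differed between genes. *Hspb1* fell in all 3 KD lines, by 1.68 on the log2 scale in *Baf180* KD, 1.94 in *Baf250a* KD and 0.99 in *Brd9* KD. *Hspa1b* moved the other way and rose in *Baf180* KD and *Baf250a* KD, by log2 fold changes of 1.06 and 1.90. *Hsph1* fell in all 3 lines by smaller amounts, *Hspd1* fell in *Baf180* KD and *Baf250a* KD, *Hspa8* and *Hspe1* fell in *Baf250a* KD, and *Bag3* and *Dnajb1* passed the test in none of the 3 comparisons. At a Benjamini-Hochberg adjusted p under 0.05 over all genes, the edgeR quasi-likelihood test called 4 of 9 tested chaperone genes in *Baf180* KD (1 higher, 3 lower), where 41.0% of all genes were called, 21.7% higher and 19.3% lower. It called 6 of 9 in *Baf250a* KD (1 higher, 5 lower), where 57.8% of all genes were called, 28.9% in each direction. In *Brd9* KD it called 2 of 9 (both lower), where 29.2% of all genes were called, 15.1% higher and 14.1% lower. *Hspa1a* did not pass the count filter in any of the 3. As a set the genes were called about as often as genes at large, and their median log2 fold changes of -0.02, -0.40 and -0.13 stood beside all-gene medians of 0.03, 0.00 and 0.01. The 3 comparisons share their scr libraries.

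**Figure D2:**
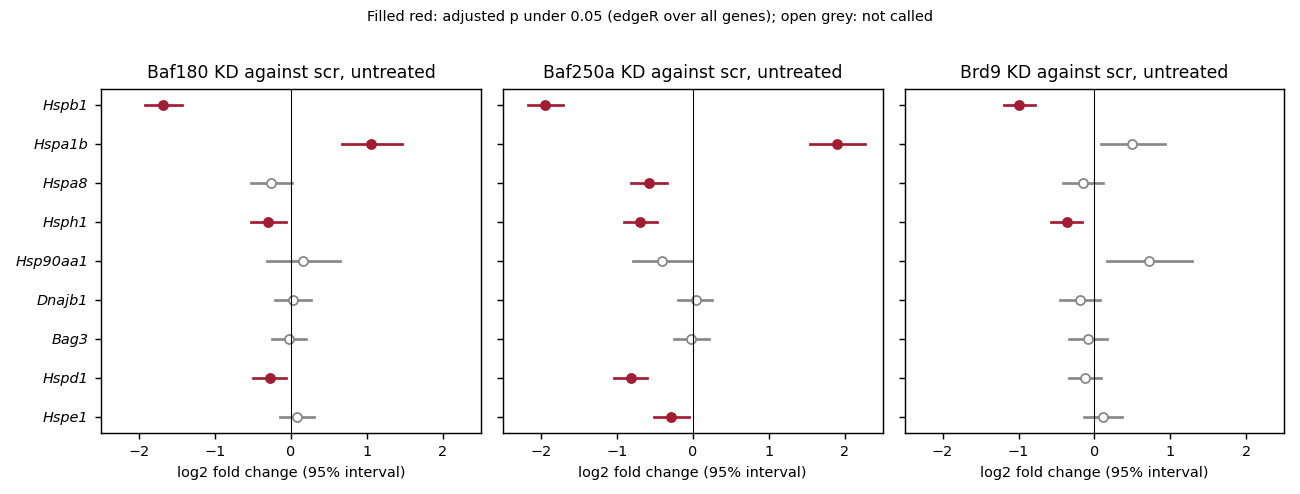
Log2 fold change of KD over scr in untreated myoblasts (x axis) with its 95% interval for the 9 chaperone genes tested (y axis), 1 panel per KD line. Filled red points have an adjusted p under 0.05 and open grey points do not, and *Hspb1* is the member furthest to the left in each panel, at -1.68, -1.94 and -0.99.

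*Hspb1* (HSP27, also called HSP25 in the mouse) is an ATP-independent holdase that also binds actin filaments. It stood at 377 and 406 CPM in the untreated scr libraries. The values were 129 and 113 CPM in *Baf180* KD, 107 and 97.4 in *Baf250a* KD, and 203 and 188 in *Brd9* KD. No KD library reached the lower scr library, and the 3 lines did not overlap each other. Relative to scr, *Hspb1* was 3.2-fold lower in *Baf180* KD (log2 fold change -1.68 ± 0.11 SE, edgeR adjusted p = 4.23e-07), 3.83-fold lower in *Baf250a* KD (-1.94 ± 0.11, 9.94e-09) and 1.98-fold lower in *Brd9* KD (-0.99 ± 0.09, 0.000293). The separation of KD from scr held under metal, while *Baf180* KD and *Baf250a* KD then overlapped each other. Over all treatments the 6 scr libraries spanned 295 to 449 CPM, against 104 to 137 in *Baf180* KD, 97.4 to 121 in *Baf250a* KD and 175 to 224 in *Brd9* KD. All 18 KD libraries were thus below all 6 scr libraries, which was so for 3.21% of the 16524 genes tested across the series.

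*Hspa1b* showed the reverse order of lines at a much lower level. It stood at 5.48 and 5.9 CPM in untreated scr, 12.9 and 10.7 in *Baf180* KD, 19.2 and 23.6 in *Baf250a* KD and 8.39 and 7.56 in *Brd9* KD. Each KD library was above both scr libraries. The rise was 2.09-fold in *Baf180* KD (log2 fold change 1.06 ± 0.18, edgeR adjusted p = 0.00079) and 3.74-fold in *Baf250a* KD (1.90 ± 0.17, 9.04e-07). In *Brd9* KD the log2 fold change of 0.50 ± 0.19 did not pass the test (edgeR adjusted p = 0.0725, 95% interval 0.08 to 0.93). With all 12 libraries of both lines in the fit and treatment as a term, an analysis added after seeing the data, *Hspa1b* was called there too (0.55 ± 0.10, edgeR adjusted p = 0.000806), beside 32.8% of all genes in that fit. Over all treatments the ranges were 4.89 to 6.64 CPM in scr, 8.64 to 16.2 in *Baf180* KD, 7.78 to 23.7 in *Baf250a* KD and 7.2 to 9.65 in *Brd9* KD. All 18 KD libraries were above all 6 scr libraries, as for 5.32% of genes, and the lowest *Baf250a* KD value rested on 4 counts in the shallow library.

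The promoter windows of some of these genes hold letters of the kind that HSF1 recognizes, before or after the transcript start. They are given as a description, and whether they bear on the KD changes was not tested. RefSeq promoter windows of 300 bases, from 250 before to 50 after the transcript start (GRCm38.p6), were found for 8 of the 10 genes. Each window was searched on both strands for a pair of inverted units (GAANNTTC or TTCNNGAA) and for a run of 3 units (GAANNTTCNNGAA or TTCNNGAANNTTC, each of which contains the pair). The pair occurred in 7 of the 8 genes, all but *Dnajb1*, and in 15.1% of 32851 windows. *Hspb1* had a pair at positions -117 and -97 from the start, shown in capitals in the 90 bases below. *Hspa1a* and *Hspa1b* had a pair at -104 in 60 bases that were identical between the 2 genes.
Hspb1, chr5:135887769-135887858, plus strand: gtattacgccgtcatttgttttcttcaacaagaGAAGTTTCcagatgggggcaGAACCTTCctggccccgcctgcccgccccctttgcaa
Hspa1a, chr17:34972227-34972286, minus strand: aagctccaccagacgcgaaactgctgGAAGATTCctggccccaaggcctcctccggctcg
Hspa1b, chr17:34959309-34959368, minus strand: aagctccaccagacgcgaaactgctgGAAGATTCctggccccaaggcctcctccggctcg

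The run of 3 units was rarer, at 0.603% of windows, and it occurred in windows of *Hspd1*, *Hspe1* and *Hsph1*. They are shown as the longest matches in the windows of the 8 genes searched, in capitals below. The *Hspe1* bases, with overlapping matches at -89 and -84 upstream of *Hspe1*, also overlap an annotated exon of *Hspd1* on the other strand. They fall in the window of a second *Hspd1* start, while the window at the outer *Hspd1* start held no match. The *Hsph1* match, at 37 after the start, lies inside an annotated exon. These matches describe letters in a window and were not compared with factor binding here.
Hspe1, chr1:55088053-55088082, plus strand: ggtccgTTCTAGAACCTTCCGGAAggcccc
Hsph1, chr5:149636287-149636306, minus strand: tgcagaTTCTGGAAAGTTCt

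Among the cytosolic partners of HSP70, *Hsph1* fell in all 3 lines. Its untreated values were 199 and 207 CPM in scr, 173 and 154 in *Baf180* KD, 130 and 122 in *Baf250a* KD and 156 and 156 in *Brd9* KD. Every untreated KD library was below both untreated scr libraries and *Baf250a* KD was lowest. The share of all genes separated in this way was not counted. Over all treatments *Baf180* KD overlapped scr, at 154 to 176 CPM against 175 to 207. *Baf250a* KD at 122 to 159 and *Brd9* KD at 139 to 161 stayed below. In untreated cells the log2 fold changes were -0.30 ± 0.10 in *Baf180* KD (edgeR adjusted p = 0.0375), -0.69 ± 0.10 in *Baf250a* KD (8.48e-05) and -0.36 ± 0.09 in *Brd9* KD (0.0208). The *Baf250a* KD call held in all 7 alternative analyses and 4 leave-outs. The *Baf180* KD call was lost in 2 of 7 alternatives and with either *Baf180* KD library left out (edgeR adjusted p = 0.0748 and 0.241). The *Brd9* KD call was lost in 1 of 7 and with either *Brd9* KD library left out (0.137 and 0.134). *Hspa8* was called in *Baf250a* KD, at 506 and 547 CPM against 719 and 854 in scr (-0.58 ± 0.11, edgeR adjusted p = 0.000584). In *Baf180* KD it stood at 715 and 589 CPM (-0.26 ± 0.13, interval -0.53 to 0.02) and in *Brd9* KD at 759 and 643 (-0.15 ± 0.11, interval -0.41 to 0.11), and did not pass the test in either, although the GC correction described below called it in *Baf180* KD. Among these untreated values only those of *Brd9* KD overlapped scr. Over all treatments *Baf180* KD did too, at 589 to 867 CPM against 670 to 854.

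Both genes of the mitochondrial chaperonin pair were called only in *Baf250a* KD. *Hspd1* stood at 363 and 349 CPM in untreated scr and at 209 and 196 in *Baf250a* KD, a fall of 0.81 on the log2 scale (SE 0.10, edgeR adjusted p = 1.72e-05). In *Baf180* KD it stood at 293 and 285 CPM, also below scr (-0.28 ± 0.10, adjusted p = 0.0422), a call lost in 3 of 7 alternatives and with either *Baf180* KD library left out (edgeR adjusted p = 0.123 and 0.16), and in *Brd9* KD at 313 and 330 CPM it did not pass the test (-0.13 ± 0.09, interval -0.34 to 0.08). *Hspe1* was called only in *Baf250a* KD, at 88.6 and 81.2 CPM against 106 and 100 in scr (-0.28 ± 0.11, edgeR adjusted p = 0.0349). That call was lost in 4 of 7 alternative analyses, DESeq2 among them (adjusted p = 0.0639), and with either *Baf250a* KD library left out (edgeR adjusted p = 0.0934 and 0.308). Its log2 fold changes were 0.08 ± 0.10 in *Baf180* KD and 0.11 ± 0.11 in *Brd9* KD. The difference between lines was not tested for either gene, and *Hspd1* was not tested against *Hspe1*.

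*Bag3* and *Dnajb1*, which are widely used as readouts of HSF1 activity, were called in none of the 3 untreated comparisons. *Bag3* had log2 fold changes of -0.02, -0.02 and -0.08 in *Baf180*, *Baf250a* and *Brd9* KD, with intervals of -0.25 to 0.20, -0.25 to 0.22 and -0.33 to 0.16. *Dnajb1* had log2 fold changes of 0.03 ± 0.11, 0.04 ± 0.10 and -0.19 ± 0.11. The *Dnajb1* intervals reached from -0.46 in *Brd9* KD to 0.27 in *Baf180* KD, so smaller changes in either direction were not detectable. The 12-library fit called *Dnajb1* in *Baf180* KD (0.22 ± 0.07, edgeR adjusted p = 0.0167), beside 41.3% of all genes. That fit takes a single KD difference over all treatments, while the Zn response of *Dnajb1* differed from scr, as given below.

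*Hsp90aa1* and *Hspa1a* could not be placed firmly. *Hsp90aa1* stood at 333 and 197 CPM in untreated scr, 240 and 343 in *Baf180* KD, 203 and 199 in *Baf250a* KD and 356 and 507 in *Brd9* KD. The spread within scr alone was 333 against 197, and none of the log2 fold changes of 0.16 ± 0.22, -0.40 ± 0.18 and 0.72 ± 0.25 passed the test (edgeR adjusted p = 0.589, 0.0721 and 0.0577). In the 12-library fits it was called lower in *Baf180* KD (-0.85 ± 0.28, edgeR adjusted p = 0.0296) and in *Baf250a* KD (-1.11 ± 0.26, 0.00252, beside 51.8% of all genes, in a fit that includes the shallow library). These fits take a single KD difference over untreated, Cu and Zn libraries. The metal responses of *Hsp90aa1* differed between these lines and scr, as given below. The negative value in *Baf180* KD is therefore not a difference in untreated cells. Among the 12-library fits, *Hspa1a* passed the count filter only in that with the *Baf180* KD libraries, where it was highest. It also passed in the metal fits of *Baf180* KD and in the fits on all libraries, which hold the same *Baf180* KD libraries. No KD test of *Hspa1a* is therefore given. It stood at 0.192 to 0.775 CPM in *Baf180* KD against 0 to 0.296 in scr, ranges that overlapped and that rest on at most 22 counts in a library.

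A correction for GC content and transcript length moved the median log2 fold change of all genes from 0.03 to -0.12 in *Baf180* KD, from 0.00 to -0.16 in *Baf250a* KD and from 0.01 to -0.06 in *Brd9* KD, and the split of all called genes from 3217 higher and 2870 lower to 2383 and 4389, from 4327 and 4320 to 3461 and 5799, and from 2157 and 2008 to 1630 and 2833. Under that correction *Hspb1* remained 2.95-fold, 3.3-fold and 1.71-fold lower, and *Hspa1b* 2.12-fold and 3.84-fold higher in *Baf180* KD and *Baf250a* KD. It also called *Hspa1b* in *Brd9* KD (0.60 ± 0.17, edgeR adjusted p = 0.024), *Hspa8* in *Baf180* KD (-0.29 ± 0.10, 0.0381) and *Hsp90aa1* in *Baf250a* KD (-0.65 ± 0.14, 0.00099). *Hspb1* in the 3 lines, and *Hspa1b* in *Baf180* KD and *Baf250a* KD, passed the test in all 7 alternative analyses and with any of the 4 untreated libraries left out.

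The wider chaperone network was read from 8 lists that together held 83 further genes, of which 80 were tested in each KD comparison. In *Baf180* KD 13 were called higher and 31 lower, in *Baf250a* KD 18 and 37, and in *Brd9* KD 6 and 23, and the median log2 fold changes were -0.18, -0.24 and -0.15. Lower calls thus outnumbered higher ones in each line, where all genes were split nearly evenly without the GC correction. Of all genes, 41.0%, 57.8% and 29.2% were called in the same order of lines. The genes with the smallest adjusted p were shared by name: *Hspb8*, the small heat shock protein that works with Bag3, and *Lonp1*, the mitochondrial matrix protease. *Hspb8* averaged 217 CPM in scr, 73.5 in *Baf180* KD, 45.2 in *Baf250a* KD and 92.9 in *Brd9* KD, with log2 fold changes of -1.54 ± 0.11, -2.26 ± 0.13 and -1.20 ± 0.10 (edgeR adjusted p = 9.7e-07, 1.14e-08 and 0.000237). *Lonp1* averaged 425, 177, 117 and 224 CPM, with log2 fold changes of -1.25 ± 0.11, -1.86 ± 0.11 and -0.91 ± 0.11 (6.85e-06, 2.38e-08 and 0.000887). *Hspb8* was the small heat shock protein that followed *Hspb1* in every line: of the 5 tested, 1 was higher and 1 lower in *Baf180* KD, 0 and 1 in *Baf250a* KD and 0 and 2 in *Brd9* KD.

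Lower calls prevailed in the cytosolic chaperonin TRiC with its delivery factor prefoldin, and in mitochondrial proteostasis. Of 14 TRiC and prefoldin genes, 9 fell in *Baf180* KD, 11 fell in *Baf250a* KD, and 6 fell and 1 rose in *Brd9* KD, with medians of -0.39, -0.65 and -0.29. Those lower calls were 64.3%, 78.6% and 42.9% of the list, beside 19.3%, 28.9% and 14.1% of all genes. With the GC correction, which raised the lower calls over all genes, 11, 13 and 7 of the list were lower. *Cct2*, a TRiC subunit, fell by 0.68 in *Baf180* KD and by 1.30 in *Baf250a* KD, and *Pfdn6*, a prefoldin subunit, fell by 0.81, 1.30 and 0.71 in the 3 lines. The count in *Brd9* KD was lower in the 12-library fit over all treatments, which called 2 of the 14, beside 8 in *Baf180* KD and 9 in *Baf250a* KD. Of 10 mitochondrial genes, 6 fell in *Baf180* KD, 7 fell and 1 rose in *Baf250a* KD, and 6 fell and 1 rose in *Brd9* KD, with medians of -0.39, -0.67 and -0.43. These stand beside the same 19.3%, 28.9% and 14.1% of all genes called lower, and for this list only the main test is given. *Hspa9*, the mitochondrial HSP70, fell by 0.59, 1.00 and 0.53, and *Dnaja3*, its J-domain partner, by 0.53, 0.98 and 0.58 on the log2 scale. *Hspd1*, of the same compartment, was also called lower in *Baf180* KD and *Baf250a* KD, while its lid *Hspe1* was called lower only in *Baf250a* KD.

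HSP90 cochaperones were mostly lower where called. The counts of the lists in this paragraph stand beside 41.0% of all genes called in *Baf180* KD, 57.8% in *Baf250a* KD and 29.2% in *Brd9* KD, and some lie near these shares. Of 10 genes on that list, 1 rose and 4 fell in *Baf180* KD, 1 rose and 7 fell in *Baf250a* KD, and 1 rose and 3 fell in *Brd9* KD, while the 12-library fits called 1 higher and 2 lower, 0 and 4, and 1 and 0. *Fkbp4*, an HSP90-binding immunophilin, fell by 0.67, 1.11 and 0.51, and *Chordc1* rose by 0.70 in *Baf180* KD and 0.77 in *Brd9* KD. *Hsp90ab1*, the constitutive HSP90, averaged 2358 CPM in *Baf250a* KD against 4183 in scr (-0.83 ± 0.10, edgeR adjusted p = 2.14e-05). Of 14 HSP40 and other HSP70 cochaperones, 3 rose and 6 fell in *Baf180* KD, 5 rose and 6 fell in *Baf250a* KD and 4 fell in *Brd9* KD. *Hspbp1*, which binds HSP70, fell by 0.71 in *Baf180* KD and 0.98 in *Baf250a* KD, and *Stub1*, the ubiquitin ligase that binds HSP70 and HSP90, fell by 0.52, 0.65 and 0.45. Of 7 other cytosolic HSP70 and HSP110 genes tested, 3 rose and 2 fell in *Baf180* KD, 3 rose and 3 fell in *Baf250a* KD and 1 rose in *Brd9* KD. In the 12-library fit of *Baf180* KD these splits became 1 higher and 3 lower for the HSP40 list and 1 higher and 3 lower for the HSP70 and HSP110 list.

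Chaperones of the endoplasmic reticulum split differently. Of 15, 4 rose and 3 fell in *Baf180* KD, 7 rose and 1 fell in *Baf250a* KD, and 1 rose and 2 fell in *Brd9* KD. As 41.0%, 57.8% and 29.2% of all genes were called in these lines, the list was called about as often as genes at large or less. In *Baf250a* KD the rises included *Dnajb9* (1.18 ± 0.13, edgeR adjusted p = 5.64e-06), *Calr* (0.80 ± 0.11, 4.24e-05) and *Pdia3* (0.65 ± 0.10, 0.00011), which act in glycoprotein folding or with the HSP70 of this compartment. The split changed with the GC correction, to 1 higher and 5 lower in *Baf180* KD, 6 and 4 in *Baf250a* KD and 1 and 4 in *Brd9* KD, and with the 12-library fits to 6 and 1, 6 and 1, and 1 and 4. On the list of HSF genes and regulators, *Hsf4* rose in all 3 lines, from 0.855 CPM in scr to 5.15, 6.72 and 2.49 (log2 fold changes of 2.59 ± 0.30, 2.96 ± 0.27 and 1.55 ± 0.33, edgeR adjusted p = 4.98e-05, 1.17e-06 and 0.0118). *Hsf2* fell in *Baf250a* KD (-0.57 ± 0.13, 0.00195), and the other 3 genes of that list, *Hsf1* among them, were not called in any line. The 12-library fits called 3 genes of this list higher and 1 lower in *Baf180* KD, 2 and 2 in *Baf250a* KD and 1 and 1 in *Brd9* KD.

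**Figure D3:**
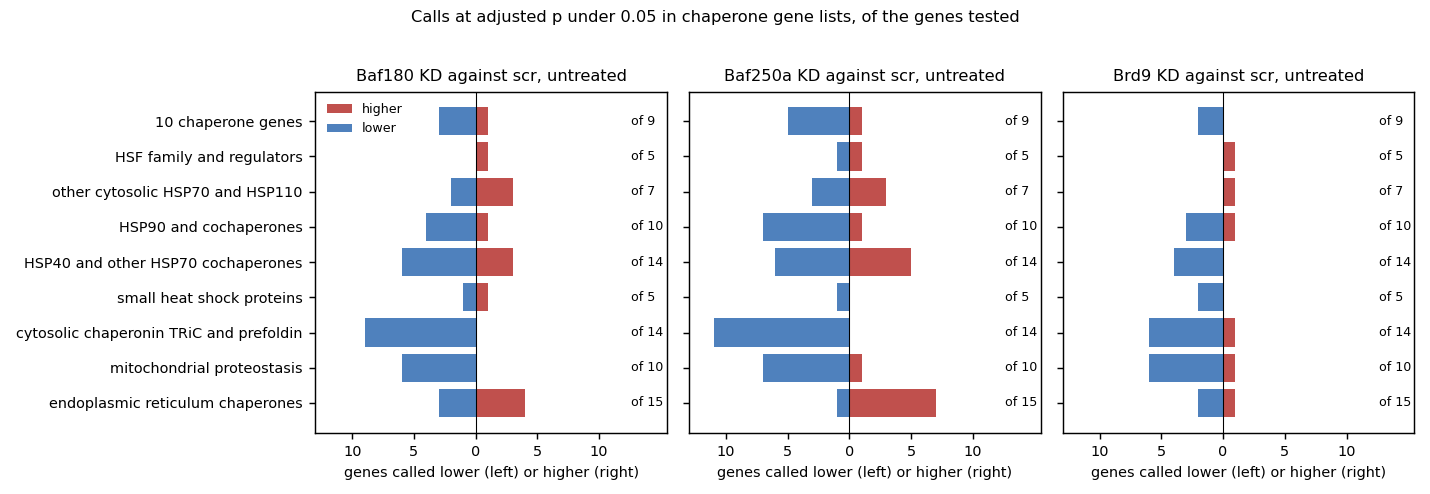
Number of genes called lower (bars to the left of 0) or higher (bars to the right) at an adjusted p under 0.05 in the 10 chaperone genes and in 8 further chaperone lists (y axis), for each KD line against scr in untreated cells; the number tested stands at the right. The TRiC and prefoldin bars reach 9, 11 and 6 genes to the left.

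Copper and zinc were then compared with no treatment, first as the mean response of the 4 lines. None of the 10 chaperone genes passed the edgeR quasi-likelihood test for either metal. The counts were 0 of 10 for Cu, where 7.86% of all genes were called, and 0 of 10 for Zn, where 0.284% were; 2 members for Cu and 0 for Zn had an unadjusted p under 0.05. The metal markers moved in the same fit. Zn raised *Mt2* (2.07 ± 0.06 on the log2 scale) and *Mt1* (1.55 ± 0.09), the metallothioneins, and *Slc30a1* (1.03 ± 0.07), the zinc exporter, and lowered *Slc39a10* (-1.14 ± 0.06), a zinc importer. Cu raised *Hmox1* (0.78 ± 0.07), the heme oxygenase induced by oxidative stress, *Mt2* (0.40 ± 0.06) and *Mt1* (0.34 ± 0.09).

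The intervals set how large a mean metal response of the chaperones could be. Leaving aside *Hspa1a*, the 9 log2 fold changes for Cu ran from -0.11 to 0.15 with intervals inside -0.40 to 0.34. For Zn they ran from -0.18 to 0.11 with intervals inside -0.39 to 0.40. The largest for Cu were *Hspa8* (0.15 ± 0.07, edgeR adjusted p = 0.191), *Hspa1b* (0.14 ± 0.09, 0.396) and *Dnajb1* (0.12 ± 0.05, 0.152). *Hsph1* was the most tightly bounded, at 0.00 ± 0.04 for Cu and 0.03 ± 0.04 for Zn. *Hspa1a* was bounded only within -1.25 to 1.20 for Cu and -0.97 to 1.24 for Zn at its counts. Of the 81 further chaperone genes tested, 2 rose with Cu, *Bag2* (0.25) and *Hspbp1* (0.25), both cochaperones of HSP70, and 0 were called with Zn.

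**Figure D4:**
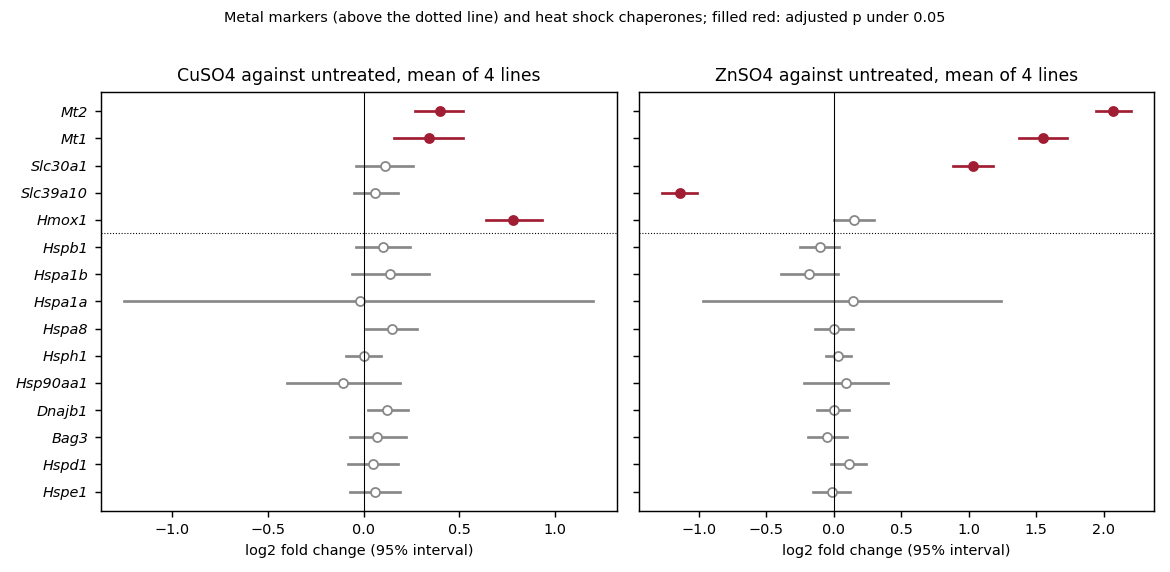
Log2 fold change of Cu (left) or Zn (right) over untreated cells as the mean of 4 lines (x axis) with its 95% interval, for 5 metal response genes above the dotted line and the 10 chaperone genes below it. Filled red points have an adjusted p under 0.05; *Mt2* sits at 2.07 with Zn, while no chaperone gene is filled.

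Within single lines few members responded. With Cu, 0 of 9 tested were called in scr (0.0333% of all genes), 0 of 9 in *Baf250a* KD (1.27%) and 0 of 9 in *Brd9* KD (0.274%), and with Zn 0 of 10 in *Baf180* KD (0.0197%) and 0 of 9 in *Brd9* KD (0.0334%). Of these, 1 had an unadjusted p under 0.05, with Cu in *Brd9* KD. DESeq2 and edgeR with all genes of at least 1 count gave 0 to 1 calls in these same comparisons. A replicate block called *Hsp90aa1* with Zn in *Baf180* KD (-0.39, edgeR adjusted p = 0.0137), beside 657 of 15241 genes. It also called *Hspa8* with Cu in that line (0.32, 0.0147), beside 3892 genes. In *Baf180* KD, Cu was followed by a call for 1 of 10 members (13.8% of all genes), *Hsp90aa1*, at 155 and 205 CPM against 240 and 343 untreated (-0.73 ± 0.19, edgeR adjusted p = 0.0351). It did not pass with DESeq2 (adjusted p = 0.101), with the GC correction (-0.53) or with all 24 libraries in the fit (adjusted p = 0.114), and without the untreated replicate 2 library it was -0.43. With Zn in scr, 0 of 9 members were called (17.6% of all genes, or 2645, which became 25 with the GC correction) and 2 had an unadjusted p under 0.05, although *Hsp90aa1* went from 333 and 197 to 602 and 608 CPM (1.27 ± 0.36, edgeR adjusted p = 0.05). DESeq2 left that count at 0, and the fit on 24 libraries called *Hsp90aa1* (1.19, edgeR adjusted p = 0.0046) and *Dnajb1* (-0.33, 0.0189).

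With Zn in *Baf250a* KD, 4 of 9 members were called (15.9% of all genes), and their values depended on which of the 2 Zn libraries was used. *Hspd1* (0.40 ± 0.11, edgeR adjusted p = 0.0172) and *Hsph1* (0.30 ± 0.10, 0.0391) were higher, and *Hsp90aa1* (-0.40 ± 0.11, 0.0165) and *Hspa1b* (-0.52 ± 0.17, 0.0433) were lower. The 2 Zn libraries disagreed on *Hspd1*, at 293 CPM in the deep library and 192 in the shallow one, with 209 and 196 untreated. Without the shallow library 5 members were called, a fit in which the lone Zn library is assumed to vary like the other groups. *Hspd1* was then 0.52, *Hsph1* 0.33, *Hsp90aa1* -0.31 and *Hspa1b* -0.48, and all 4 kept their calls. Without the deep library, with the shallow one alone, they were -0.05, 0.13, -0.89 and -1.43. With both libraries, DESeq2 and the fit on all 24 libraries called 0 of the members.

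The difference between a KD line and scr in the response to a metal was tested as an interaction over all 24 libraries. *Hsp90aa1* differed with Zn in *Baf180* KD (-1.57 ± 0.41, edgeR adjusted p = 0.00757) and in *Baf250a* KD (-1.63 ± 0.43, 0.00702), and with Cu in *Baf180* KD (-1.31 ± 0.41, 0.0396). *Dnajb1* differed in the other direction with Zn in *Baf180* KD (0.39 ± 0.15, 0.0494), *Baf250a* KD (0.45 ± 0.15, 0.0328) and *Brd9* KD (0.48 ± 0.15, 0.0434), and *Hsph1* with Zn in *Baf250a* KD (0.45 ± 0.13, 0.0125). That made 2 of 10 members for Zn in *Baf180* KD (28.7% of all genes), 3 in *Baf250a* KD (30.5%) and 1 in *Brd9* KD (11.1%), and 1 for Cu in *Baf180* KD (12.8%). With the GC correction the called genes behind these shares went from 4742 to 1144, from 5036 to 2920, from 1837 to 0 and from 2116 to 130. With Cu, 0 were called in *Baf250a* KD (0.0121%) and 0 in *Brd9* KD (0.0363%), where 0 and 2 members had an unadjusted p under 0.05 and DESeq2 also called 0. These differences share the scr libraries. For *Dnajb1* the scr values themselves differed, as it stood at 86.9 and 95.9 CPM in untreated scr and at 73.9 and 71.3 with Zn. For *Hsph1* in *Baf250a* KD the change in scr was -0.09 and that in the KD line 0.30. Without the shallow library the *Baf250a* KD differences were -1.50 for *Hsp90aa1*, 0.51 for *Dnajb1* and 0.51 for *Hsph1*, all still called.

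The libraries behind these differences also differed in base composition. For each library the slope of log2 level, relative to the mean of all libraries, on the GC content of the genes was taken over all genes, in log2 units per 10 percentage points of GC. It was lowest in scr Zn replicate 2 (-0.37) and replicate 1 (-0.269) and highest in scr NT replicate 2 (0.336). Over the 24 libraries, which share lines and treatments and are not independent, the log2 level of *Hsp90aa1* had a Pearson correlation of -0.73 with this slope, and -0.95 after the line means were subtracted; 5.52% of genes had a lower value than -0.73. For *Dnajb1* it was 0.68, and 0.71 within lines, and for *Bag3* 0.55 and 0.60. Within lines it was also 0.69 for *Hspb1*, 0.67 for *Hsph1* and 0.64 for *Hspa8*, against 0.00, 0.31 and 0.33 over all libraries. For *Hspd1*, *Hspe1*, *Hspa1a* and *Hspa1b* it was 0.15, -0.08, -0.04 and -0.20 within lines. With the GC and length correction *Hsp90aa1* still differed with Zn in *Baf180* KD (-1.24, edgeR adjusted p = 0.0383) and *Baf250a* KD (-1.13, 0.0433), and did not with Cu in *Baf180* KD (-1.05, 0.123). The *Dnajb1* differences became 0.10, 0.26 and 0.22 and none passed the test. *Hsp90aa1* has the lowest GC content of the 10 genes, at 44.9%, while *Hspb1* has the highest, at 61.2%.

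**Figure D5:**
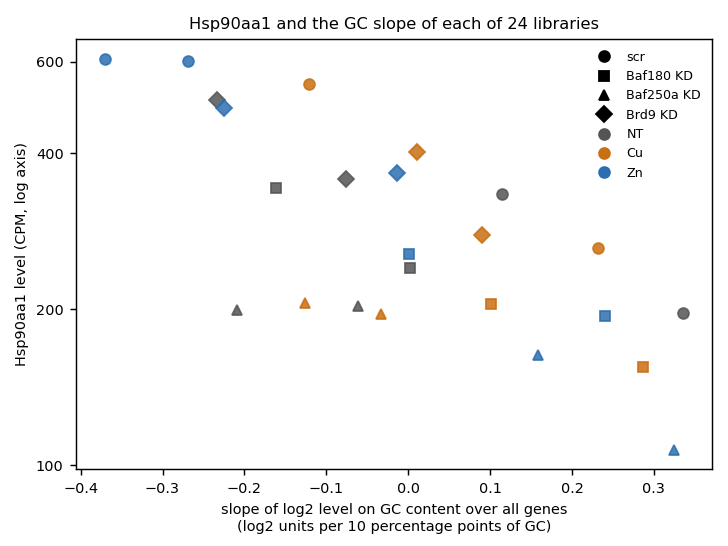
Level of *Hsp90aa1* in CPM (y axis, log scale) against the slope of log2 level on GC content over all genes (x axis, log2 units per 10 percentage points of GC) in each of 24 libraries, with shapes for lines and colours for treatments. The scr Zn libraries, at slopes of -0.37 and -0.269, hold the highest *Hsp90aa1* levels, 608 and 602 CPM, and scr NT replicate 2, at a slope of 0.336, holds 197 CPM.

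Across the 24 libraries some pairs of members rose and fell together, and others moved in opposite directions. These correlations are descriptions over libraries that share lines, and genes of like GC content share the slope above. *Hsph1* and *Hspd1* had a Pearson correlation of 0.79 in log2 level, and 0.62 after the line means were subtracted. *Hspd1* and *Hspe1* had 0.77 and 0.52. *Hspb1* and *Hspd1* had 0.75, which became -0.02 within lines, and *Hspb1* and *Hspa1b* had -0.81, which became 0.30. These 2 pairs followed the order of the lines, and their correlations were not kept among libraries of a line. *Dnajb1* and *Hsp90aa1* had -0.75 and -0.69. The strongest correlations within lines were 0.74 for *Hspb1* and *Bag3*, -0.74 for *Hsp90aa1* and *Hspa8*, and 0.73 for *Hspa8* and *Bag3*. Over all libraries these pairs had -0.12, 0.21 and 0.33.

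The genes whose log2 level was most like the mean standardized level of the 10 members, among 9293 genes with a mean of at least 10 CPM, were *Mtmr4* (Pearson r = 0.94), *Steap1* (0.93), *Ankrd27* (0.93), *Crkl* (0.92) and *Tomm5* (0.91) over 24 libraries. After the line means were subtracted they were *Pttg1ip* (0.94), *Ndufa10* (0.94), *Rnf7* (0.92), *Wbp1l* (0.92) and *Lgmn* (0.92), with no gene in both groups of 5. The members themselves had correlations of -0.34 to 0.78 with that mean, and of -0.42 to 0.85 within lines.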

How the data were processed

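RNA was rRNA-depleted with RNase H and made into stranded paired-end libraries. Per the study's methods and the submitters' processing notes, the authors aligned reads to mm10 with STAR, kept uniquely aligned pairs and counted them per gene with featureCounts; the notes also name DESeq2 and deepTools, and versions are not given in the sources used here. The deposited values are raw counts for 55291 gene symbols in 24 libraries. Groups came from the sample titles. CPM used TMM scaling over the 24 libraries. The main test was edgeR 4.0.16 (R 4.3.3) quasi-likelihood on the counts, after filterByExpr, with Benjamini-Hochberg adjustment over all genes at 0.05. Each fit of a metal in a line used its 6 libraries, each of KD against scr 4 untreated libraries, and those of differences and mean responses all 24. Alternatives were DESeq2 1.42.0, RLE size factors, a filter of 1 count, other sets of libraries, a replicate block, a GC content and length correction (5 spline df, limma 3.58.1 utilities, GC known for 97.9% of 16524 genes), leaving out each library, and the longest transcript as length. Scripts were tested on simulated data. Gene coordinates are from GENCODE on GRCm38 (53289 symbols matched).

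The chaperone genes, the chaperone and marker lists and the tests were chosen with earlier results of these data known. Named genes are all 10 members, per comparison up to 4 called genes of a list with the smallest adjusted p, the 5 genes most like the members' mean, the metal markers and the KD targets. Correlations are on log2 CPM with a prior count of 2. Replicates differed beyond sampling noise in every group (chi-square per degree of freedom 2.8 to 33.3). This cannot tell separate cultures from separate library preparations. The libraries were taken as replicates because the study's methods call them so. Intervals cover 95%, a floor is 3 counts, and floors cover counting error only.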

Additional observations from a re-analysis of the deposited data

Results flagged for a closer look

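The following 7 differences passed a test of the difference between a KD line and scr in the response to a metal (edgeR quasi-likelihood over 24 libraries, Benjamini-Hochberg adjusted). *Hsp90aa1* was at -1.31 ± 0.41 for Cu in *Baf180* KD (adjusted p = 0.0396), at -1.57 ± 0.41 for Zn in *Baf180* KD (0.00757) and at -1.63 ± 0.43 for Zn in *Baf250a* KD (0.00702). *Dnajb1* was at 0.39 ± 0.15 for Zn in *Baf180* KD (0.0494), 0.45 ± 0.15 in *Baf250a* KD (0.0328) and 0.48 ± 0.15 in *Brd9* KD (0.0434). *Hsph1* was at 0.45 ± 0.13 for Zn in *Baf250a* KD (0.0125). All share the scr libraries, and those of *Baf250a* KD with Zn include the shallow library. Leaving out 1 library at a time, the 2 *Hsp90aa1* differences with Zn ran from -1.99 to -1.25 and from -2.11 to -1.31, and the *Hsp90aa1* difference with Cu from -1.74 without scr Cu replicate 1 to -0.68 without scr Cu replicate 2. The *Dnajb1* differences ran from 0.29 to 0.49, 0.22 to 0.52 and 0.34 to 0.62 and kept their calls in 8, 17 and 7 of the 24 leave-outs, and *Hsph1* ran from 0.27 to 0.51 and kept its call in 20. The values of 0.22 and 0.27 are those without *Baf250a* KD Zn replicate 1. Groups of 2 libraries were too small for a check of single libraries that lie far from their group.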

How the results depend on the processing

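Counts of called members that moved by over 1.5 times were as follows. With all genes of at least 1 count, they were 1 for Cu and 1 for Zn in scr, 2 for Cu and 1 for Zn in *Baf180* KD, 1 for Cu in *Brd9* KD, 2 for *Baf180* KD against scr, 2, 1 and 1 for the Cu differences of *Baf180*, *Baf250a* and *Brd9* KD, 1 and 1 for the Zn differences of *Baf180* and *Baf250a* KD, and 1 for the mean Cu response (*Hspa8*). RLE size factors gave 1 for Zn in scr and 1 for the Zn difference of *Baf180* KD. All 24 libraries in the fit gave 2 for Zn in scr, 0 for Cu in *Baf180* KD and 0 for Zn in *Baf250a* KD. The GC correction gave 0 for Cu in *Baf180* KD, 1 for Zn in *Baf250a* KD, 0 for the Cu difference and 1 for the Zn difference of *Baf180* KD, and 0 for the Zn difference of *Brd9* KD. DESeq2 gave 0 for Zn in *Baf250a* KD and 0 and 1 for the Cu and Zn differences of *Baf180* KD, and 12 libraries of 2 lines gave 0 and 1 for these and 0 for the Zn difference of *Brd9* KD. Treatment as a term, added after seeing the data, gave 7 for *Baf180* KD against scr, beside 41.3% of all genes. These 7 include *Hspa1a*, which passed the count filter there through the *Baf180* KD libraries, where it was highest. Its call is therefore not read as a KD result. The cause of these moves was not tested.

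The replicate numbers were not taken as a pairing: deviations of same-numbered libraries had correlations of -0.185 to 0.28 within lines. A replicate block gave 2 calls for Cu and 1 for Zn in *Baf180* KD, 2 for Zn in *Baf250a* KD, 2 for *Baf180* KD against scr and 2 for the Zn difference of *Brd9* KD. In *Baf180* KD, where the correlations were 0.134 to 0.247, the block called *Hsp90aa1* with Zn (-0.39, edgeR adjusted p = 0.0137) and *Hspa8* with Cu (0.32, 0.0147), and genes called with Zn went from 3 to 657. The block took genes called with Zn in scr from 2645 to 14. Leaving out 1 library at a time gave 0 to 1 calls for Zn in scr, 0 to 2 for Cu in *Baf180* KD, 0 to 5 for Zn in *Baf250a* KD, 2 to 6, 5 to 7 and 1 to 3 for *Baf180*, *Baf250a* and *Brd9* KD against scr, 0 to 2 for the Cu and the Zn difference of *Baf180* KD, 0 to 1 for the Cu difference of *Brd9* KD, 1 to 4 for the Zn difference of *Baf250a* KD, 0 to 2 for that of *Brd9* KD, and 0 in the others. *Hspd1* with Zn in *Baf250a* KD turned to -0.05 without Zn replicate 1 and was 0.52 without replicate 2; no other called member changed sign. By longest transcript, the untreated scr levels per kb were 421 for *Hspb1*, 249 for *Hspa8*, 147 for *Hspd1*, 107 for *Hspe1* and 42.6 for *Hsph1*. DESeq2 moved the median gene by 0.11 in the Zn response of *Baf250a* KD and to 0.20 in its difference from scr.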
